A study of Homo sapiens with 6 samples.

Results

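The genes that copy the genome in S phase were followed in the transcriptome of Sev-treated U251 cells. The group was chosen by name and held 48 genes of the 61496 features in the count table, among them the MCM helicase, the factors that load and start it, the sliding clamp, the replicative polymerases, the enzymes that make deoxynucleotides, and the E2F and cyclin E regulators of S phase entry. All 48 passed the filter on low counts and were tested. U251 is an established human glioma cell line, and Sev (sevoflurane) is a volatile anesthetic. The series held 6 libraries of total RNA depleted of ribosomal RNA, 3 from untreated cells in culture medium with serum and 3 from cells exposed to Sev gas for 2 h. The protocol names concentrations of 5.1%, 3.4% and 1.7% without tying one to a library. The sequenced cells are described elsewhere as treated at 5.1%, and the 3 libraries labelled sev were taken as replicates. Nothing in the labels says that the replicates came from separate cultures, so the p-values measure the spread between these libraries, which may be technical.

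In G1 phase the origin recognition complex, CDC6 and CDT1 load the MCM2 to MCM7 ring onto DNA, a step called licensing, and geminin (GMNN) blocks CDT1 once S phase has begun. CDC45 and the GINS complex then join the ring to form the active helicase. Primase and polymerase alpha start each strand, replication factor C (RFC) loads the PCNA clamp, polymerases delta and epsilon extend, and FEN1 and LIG1 finish the lagging strand. Many of these genes are known targets of E2F transcription factors, which the retinoblastoma protein holds back until cyclin-dependent kinases phosphorylate it.

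The libraries held between 38624292 and 46318311 counts, and every one of the 48 genes had at least 162 counts in every library. Values are given as CPM, counts relative to a library size scaled by edgeR's TMM method, and as log2 fold changes of Sev against control. Differences were tested with edgeR's quasi-likelihood test, 3 libraries against 3, with Benjamini-Hochberg adjustment over all 27514 features tested. A gene is said to have risen or fallen where its adjusted p was under 0.05. Of 8 glial and glioma markers, 6 were detected in every library at over 1 CPM, with VIM, NES, SOX2, SOX9 and GFAP abundant, while the astrocyte genes AQP4 and ALDH1L1 had between 0 and 17 counts. Summed over each marker list, neuron genes gave 84.2 to 107 CPM, and oligodendrocyte, microglial and endothelial genes gave 5.53 to 14.3 CPM, against 7355 to 8521 CPM for the glial list. Of 22 markers tested over these lists, 6 rose (SYT1, MBP, CD14, CSF1R, PECAM1 and CLDN5) and 4 fell (S100B, SOX2, GAD1 and OLIG2), including SOX2 and S100B of the glial list. Over all features tested, 22.1% rose and 21.5% fell. On the removal of single libraries CSF1R, PECAM1 and CLDN5 lost their calls at least once. The microglial sum was 5.53 to 6.34 CPM in control and 10.6 to 14.3 CPM in Sev libraries, with AIF1 at 0 throughout, and the part of these changes in the results was not tested. The CDK inhibitor genes CDKN2A, CDKN2B and CDKN2C were at 0 counts in all 6 libraries.

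One control library stood apart for these genes. Control replicate 1 had the lowest CPM of the 3 control libraries for 44 of the 48 genes, whereas it was the lowest for 35.5% of all features tested. Its median deviation from the control mean over the 48 genes was −0.21 on the log2 scale, against 0.19 in control replicate 2 and 0.041 in control replicate 3. Among the Sev libraries, replicate 2 was the lowest for 33 of the 48 genes, with a median deviation of −0.11, and replicate 3 was the highest for 36. The same libraries were lowest for mitotic genes, with 23 of 26 G2/M genes lowest in control replicate 1 and 18 of 26 lowest in Sev replicate 2. For the Sev libraries the share of all features was not counted. The 48 genes took 0.312% of all counts in control replicate 1, 0.399% in replicate 2 and 0.367% in replicate 3, and 0.414%, 0.379% and 0.454% in the Sev libraries. Counts for the 48 genes and for the larger lists are therefore also given without control replicate 1.

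**Figure D1:**
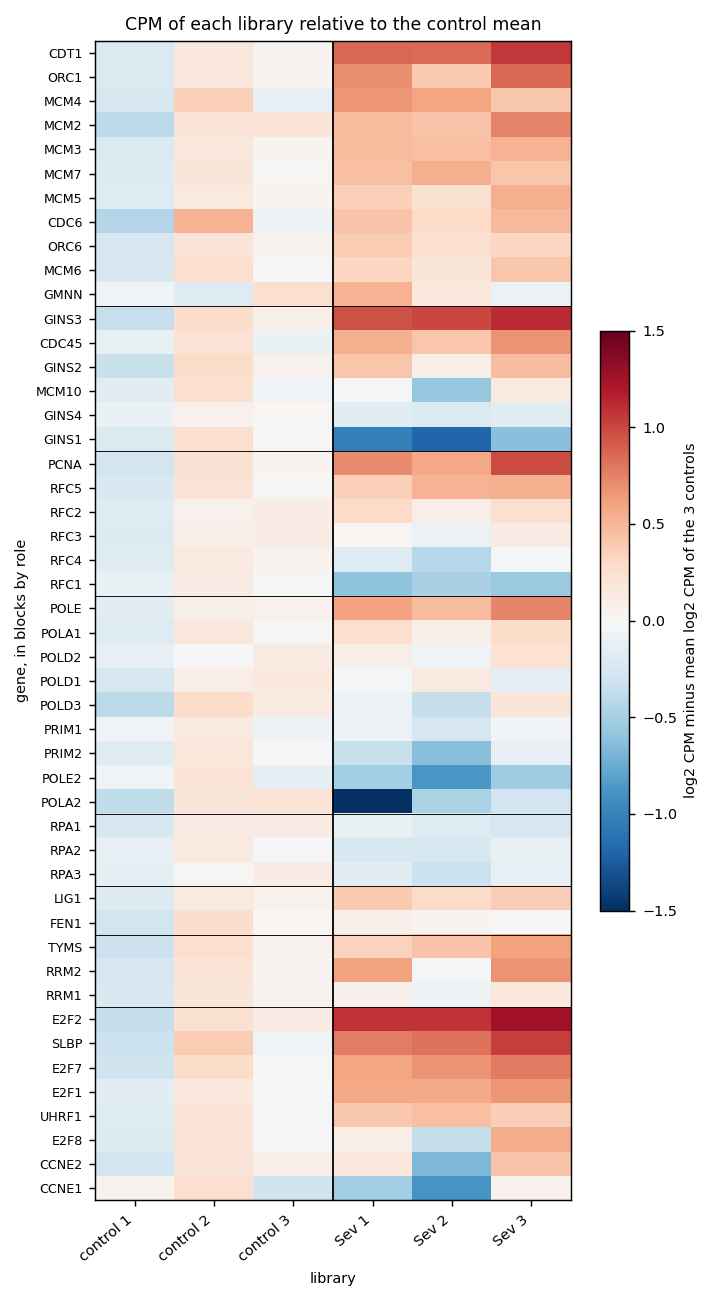
Heat map of the 48 genes (rows, in blocks by role) in the 6 libraries (columns), coloured by log2 CPM minus the mean log2 CPM of the 3 control libraries, with colours saturated beyond 1.5 in either direction. Control 1 is the lowest of the controls for 44 genes and control 2 the highest for 39, and the Sev columns are red for CDT1, GINS3, PCNA, POLE and E2F2 and blue for GINS1, RFC1, POLE2 and POLA2.

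More of the replication genes rose than fell, and GINS, RFC and polymerase epsilon each held a gene that rose and another that fell. Such mixed directions were not compared with those in other complexes. Of the 48 genes, 19 rose and 3 fell in Sev-treated cells, and 26 did not pass the test. Over all features tested, 22.1% rose and 21.5% fell, and over protein-coding genes 25.0% rose and 21.0% fell. For the 48 genes the shares were 39.6% and 6.25%. Their median log2 fold change stood at 0.25, between quartiles of −0.13 and 0.49, where that of all features tested was −0.0056. For protein-coding genes the median was 0.038, between quartiles of −0.38 and 0.43. In bulk RNA, more cells in S phase and more RNA per cell cannot be told apart.

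The changes were modest. The study's own threshold combines an unadjusted p under 0.05 with an absolute log2 fold change above 1. In edgeR's test 2 of the 48 genes passed it, E2F2 and GINS3, both higher, against 23.5% of all features and 16.7% of protein-coding genes. Without control replicate 1, and likewise with scaling by library size only, neither of them passed and 1 gene did, GINS1, as lower. At an unadjusted p under 0.05 without a limit on the fold, 20 were higher and 3 were lower. The share of all features at that limit was not counted, so these counts have no reference. DESeq2's Wald test also placed 2 and 0 past the study's threshold. The CPM of the 2 groups did not overlap for 24 of the 48 genes, higher in Sev for 20 and lower for 4, against 28.3% and 28.2% of all features tested and 31.2% and 26.6% of protein-coding genes. Without control replicate 1, 12 of the 48 rose and 4 fell, the background shares were 17.6% and 16.0%, and the median was 0.15. With scaling by library size only, which moved the median of all features by −0.14, 12 rose and 7 fell, where the shares over all features were 17.0% and 27.3%, and the median of the 48 genes was 0.26 above that of all features, as it was 0.25 above it under TMM scaling.

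**Figure D2:**
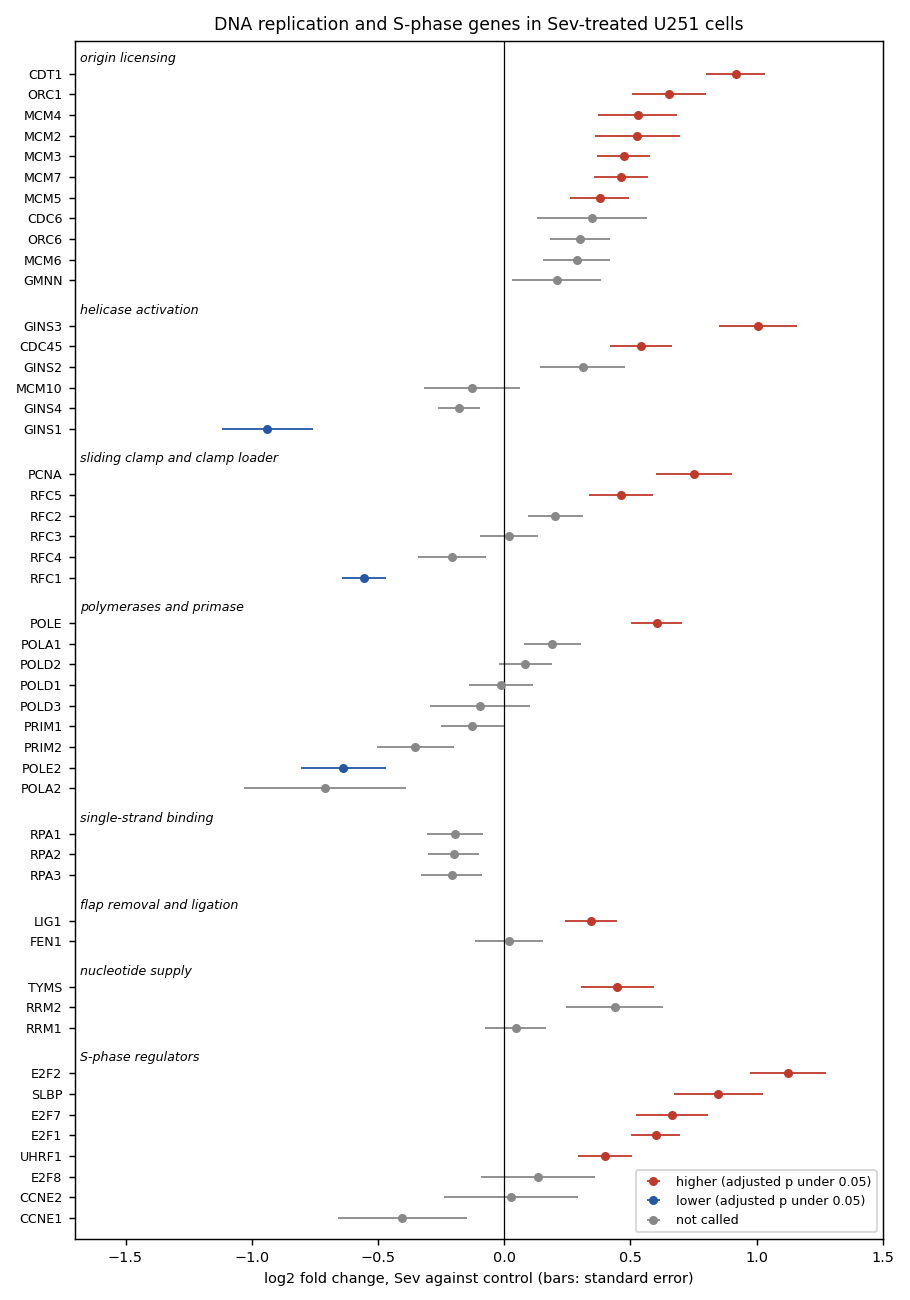
Log2 fold change of Sev against control with its standard error (x axis) for each of the 48 genes (y axis), grouped by role; red and blue mark genes that rose or fell with an adjusted p under 0.05 and grey marks the rest. The licensing block lies wholly to the right of 0, whereas GINS, RFC and polymerase epsilon each hold 1 subunit that fell and 1 that rose.

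Of the 8 regulators of S phase 5 rose and 0 fell (at an unadjusted p under 0.05 also 5 and 0, and by DESeq2 5 and 0), where 22.1% and 21.5% of all features did, and 3 of the 4 E2F genes in the group were among them. E2F1, an activator of S phase genes, had 86.5, 109 and 98.3 CPM in the control libraries and 146, 145 and 154 CPM in the Sev libraries. E2F2, an activator of the same family, had 35.7, 53.4 and 49.5 CPM in the control libraries and 96.5, 96.1 and 109 CPM in the Sev libraries. E2F7, a repressor that E2F activators induce, had 54.9, 81.7 and 67.9 CPM in the control libraries and 102, 108 and 115 CPM in the Sev libraries. In all 3 genes each Sev library exceeded each control library. The log2 fold change of 1.12 ± 0.15 (SE, adjusted p = 0.001) of E2F2 was the largest of the 48 genes, and E2F1 and E2F7 had log2 fold changes of 0.60 and 0.67 (edgeR, adjusted p = 0.00231 and 0.00709). These calls were kept in all 15 alternative analyses. Of the 5 regulators that rose, 4 did so without control replicate 1.

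E2F8, a close relative of E2F7, had 14.7, 19.6 and 16.8 CPM in the control libraries and 18.0, 13.2 and 24.8 CPM in the Sev libraries and a log2 fold change of 0.13 ± 0.23 (SE, adjusted p = 0.659). The Sev libraries of E2F8 spanned the whole range of the controls. The cyclin E genes, whose products activate CDK2 at S phase entry, did not pass the test. CCNE1 had 10.8, 12.4 and 8.47 CPM in the control libraries and 7.33, 5.62 and 10.9 CPM in the Sev libraries, with a log2 fold change of −0.40. CCNE2 had 16.1, 22.5 and 20.9 CPM in the control libraries and 21.9, 12.3 and 26.5 CPM in the Sev libraries. In both genes Sev replicate 2 was the lowest library of all 6. Without Sev replicate 3, CCNE1 passed as lower, at −0.70 (edgeR adjusted p = 0.0413). The direction of CCNE2 was not settled, since its log2 fold change of 0.028 became −0.098 with scaling by library size only and −0.11 without control replicate 1. SLBP, which binds the stem-loop of replication-dependent histone mRNAs, rose from 27.8, 45.4 and 33.5 CPM to 59.5, 61.4 and 71.2 CPM, with a log2 fold change of 0.85 ± 0.18 (SE, adjusted p = 0.00639) in edgeR's test. UHRF1, which recruits the maintenance DNA methyltransferase to newly copied DNA, had 99.7, 131 and 110.5 CPM in the control libraries and 149, 154 and 146 CPM in the Sev libraries. Its log2 fold change of 0.40 ± 0.11 (SE, adjusted p = 0.0185) lost the call when control replicate 1, control replicate 3 or Sev replicate 1 was removed, with edgeR adjusted p from 0.00714 to 0.0716 over the removals of each of the 6 libraries.

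Promoters were searched for E2F sites, since the group holds both E2F genes and known E2F targets. RefSeq promoters (GRCh38.p14, from 250 bases before to 50 bases after the annotated start) were matched by symbol for 40 of the 48 genes, all but MCM4, MCM5, GINS4, POLD3, RPA2, RPA3, E2F8 and CCNE2. The words TTCGCGC or TTGGCGC or TTCCCGC or TTGCCGC, common forms of the E2F site, were counted on both strands. At least 1 of them stood in 29 of the 40 promoters (72.5%), against 13.1% of all 27305 promoters of the same length. They stood in 15 of 17 promoters of genes that rose, 3 of 3 of genes that fell and 11 of 20 of the rest. At least 2 words stood in 10 of the 17, 1 of the 3 and 3 of the 20. The CCAAT box (CCAAT on either strand) was in 57.5% of the 40 and in 35.7% of all promoters. In 4 of the 40 an E2F word overlapped a CCAAT box, and in 5 of them E2F words overlapped each other. These are matches of letters, not measured binding, and no test was run on them.

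To show how these words lie near the start, the 120 bases before it are given for 5 genes that rose and 2 that fell, chosen with their words known, 5′ to 3′ on the strand of the gene, with the E2F words in capitals. They are E2F1 (chr20:33686386-33686505, minus strand), E2F2 (chr1:23531234-23531353, minus strand), CDT1 (chr16:88803669-88803788, plus strand), PCNA (chr20:5126623-5126742, minus strand), E2F7 (chr12:77065570-77065689, minus strand), GINS1 (chr20:25407553-25407672, plus strand) and RFC1 (chr4:39366363-39366482, minus strand).
E2F1: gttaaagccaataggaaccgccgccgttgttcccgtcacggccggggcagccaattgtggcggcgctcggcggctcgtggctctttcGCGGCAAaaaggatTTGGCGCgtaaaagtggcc
E2F2: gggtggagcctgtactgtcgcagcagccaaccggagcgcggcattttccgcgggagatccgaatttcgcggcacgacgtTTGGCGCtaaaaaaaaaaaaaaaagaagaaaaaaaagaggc
CDT1: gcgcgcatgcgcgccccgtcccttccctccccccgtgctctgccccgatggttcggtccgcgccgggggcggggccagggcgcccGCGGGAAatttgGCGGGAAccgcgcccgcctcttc
PCNA: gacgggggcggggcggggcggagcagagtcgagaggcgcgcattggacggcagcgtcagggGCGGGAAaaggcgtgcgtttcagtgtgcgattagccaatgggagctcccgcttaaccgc
E2F7: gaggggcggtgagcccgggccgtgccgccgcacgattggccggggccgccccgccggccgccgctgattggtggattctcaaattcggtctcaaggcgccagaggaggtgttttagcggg
GINS1: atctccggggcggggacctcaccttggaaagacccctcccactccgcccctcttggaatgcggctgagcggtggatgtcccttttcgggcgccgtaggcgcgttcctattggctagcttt
RFC1: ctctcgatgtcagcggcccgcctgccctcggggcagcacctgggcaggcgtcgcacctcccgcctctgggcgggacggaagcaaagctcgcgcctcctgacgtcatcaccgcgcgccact
In these windows E2F1 and CDT1 carry 2 words each close to the start, and E2F2 and PCNA carry 1. E2F7, GINS1 and RFC1 have none in these 120 bases. A word stood in this window in 18 of the 40 genes (45.0%) and in 6.03% of all promoters. By outcome, it stood there in 11 of the 17 genes that rose, 0 of the 3 that fell and 7 of the 20 others, and the 6 risen genes without one were MCM2, CDC45, GINS3, RFC5, E2F7 and SLBP.

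Of the 11 origin licensing genes in the group 7 rose and 0 fell, where 22.1% and 21.5% of all features did, and GMNN, CDC6, MCM6 and ORC6 did not pass (at an unadjusted p under 0.05, 8 higher and 0 lower, and by DESeq2 7 and 0). Without control replicate 1, and likewise without Sev replicate 1, the count that rose was 4 in place of 7, since MCM2, MCM4 and MCM5 lost their calls. CDT1, which brings the MCM ring to the origin, rose from 36.3, 47.5 and 43.8 CPM in the control libraries to 76.5, 76.2 and 87.8 CPM in the Sev libraries, a log2 fold change of 0.92 ± 0.12 (SE, adjusted p = 0.000865) by edgeR. GMNN, its inhibitor, had 23.4, 21.3 and 28.8 CPM in the control libraries and 34.9, 27.1 and 22.9 CPM in the Sev libraries and a log2 fold change of 0.21 ± 0.18 (SE, adjusted p = 0.372). Sev replicate 3 had the highest CDT1 and the lowest GMNN of the Sev libraries. The FPKM ratio of CDT1 to GMNN was 1.39, 2.00 and 1.36 in the control libraries and 1.97, 2.52 and 3.44 in the Sev libraries, and these ranges overlapped, since Sev replicate 1 lay under control replicate 2. ORC1, the large subunit of the origin recognition complex, rose from 32.6, 42.6 and 38.9 to 61.1, 49.7 and 68.7 CPM, with a log2 fold change of 0.65 ± 0.15 (SE, adjusted p = 0.00875) by edgeR. Its partner ORC6 had 45.0, 61.0 and 55.5 CPM in the control libraries and 69.5, 63.2 and 66.3 CPM in the Sev libraries with no overlap, but missed the limit (adjusted p = 0.0738, edgeR). CDC6 had the largest spread between control libraries relative to its mean of the 48 genes, with 35.7, 69.5 and 46.0 CPM in the control libraries and 65.1, 59.4 and 68.0 CPM in the Sev libraries and a log2 fold change of 0.35 ± 0.22 (SE, adjusted p = 0.227). Without control replicate 2, the highest control library of both genes, ORC6 and CDC6 passed as higher (edgeR adjusted p = 0.0425 and 0.0127).

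Of the MCM helicase subunits, MCM2, MCM3, MCM4, MCM5 and MCM7 rose, with log2 fold changes from 0.38 for MCM5 to 0.53 for MCM4. MCM7 had 234, 304 and 273 CPM in the control libraries and 368, 391 and 357 CPM in the Sev libraries. MCM3 had 179, 234 and 213 CPM in the control libraries and 288, 283 and 298 CPM in the Sev libraries. For both, every Sev library was above every control library, and the edgeR estimate was 0.46 ± 0.11 (SE, adjusted p = 0.00983) for MCM7 and 0.47 ± 0.10 (SE, adjusted p = 0.00852) for MCM3, on the log2 scale. MCM2 had 104, 157 and 158 CPM in the control libraries and 190.0, 184 and 229 CPM in the Sev libraries. MCM4 had 149.5, 226 and 162 CPM in the control libraries and 278, 265 and 233 CPM in the Sev libraries. In MCM4 the highest control library, replicate 2, came close to the lowest Sev library. MCM5 had 109.7, 139 and 129 CPM in the control libraries and 160.4, 147 and 183 CPM in the Sev libraries. MCM6 was the only subunit of the ring that did not pass, with 73.7, 104 and 86.4 CPM in the control libraries and 108, 98.8 and 116 CPM in the Sev libraries and a log2 fold change of 0.29 ± 0.13 (SE, adjusted p = 0.113). Without control replicate 2 MCM6 passed as higher as well, at 0.42 (edgeR adjusted p = 0.0305). That MCM6 differs from the other subunits was not tested. The calls of MCM2, MCM4 and MCM5 were near the limit. Each was lost without control replicate 1, with adjusted p of 0.0544, 0.087 and 0.0956 (edgeR), and with scaling by library size only. All 3 were also lost without Sev replicate 1, and the largest adjusted p over the removals of single libraries was 0.108 for MCM2, 0.0971 for MCM4 and 0.0981 for MCM5. Removing control replicate 3 also ended the calls of MCM4 and MCM5, Sev replicate 2 that of MCM4, and Sev replicate 3 those of MCM2 and MCM5.

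Of the 6 genes that turn the loaded ring into an active helicase 2 rose, 1 fell and 3 did not pass (33.3% and 16.7%, where 22.1% and 21.5% of all features rose and fell). GINS3 rose from 17.0, 25.9 and 22.8 CPM to 41.6, 43.2 and 46.8 CPM, a log2 fold change of 1.01 ± 0.15 (SE, adjusted p = 0.00175) in edgeR's test. GINS1, a subunit of the same complex, fell from 20.9, 28.9 and 23.9 CPM to 12, 10.7 and 15.8 CPM, a log2 fold change of −0.94 ± 0.18 (SE, adjusted p = 0.00468). In both genes the groups did not overlap. GINS2 had 28.2, 43.1 and 37.2 CPM in the control libraries and 47.5, 37.9 and 49.2 CPM in the Sev libraries, with overlap. GINS4 had 43.7, 48.7 and 47.8 CPM in the control libraries and 41.8, 40.3 and 41.9 CPM in the Sev libraries, so that each Sev library was under each control library, but its log2 fold change of −0.18 did not pass (adjusted p = 0.12). With scaling by library size only GINS4 was past the limit, at −0.32 (edgeR adjusted p = 0.0191).

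A ratio of FPKM values, the authors' counts scaled to gene length and library size, compares 2 subunits within a library and does not depend on the scaling between libraries. The ratio of GINS3 to GINS1 was 0.654, 0.721 and 0.769 in the control libraries and 2.80, 3.28 and 2.40 in the Sev libraries. GINS1 was thus the more abundant of the pair in each control library and the less abundant in each Sev library. This pair and the other ratios were chosen after the values were seen, and are given without a test. CDC45, which joins GINS on the MCM ring, had 26.4, 33.0 and 26.5 CPM in the control libraries and 41.3, 38.1 and 45.6 CPM in the Sev libraries and a log2 fold change of 0.54 ± 0.12 (SE, adjusted p = 0.00921) by edgeR. MCM10, which takes part in activating the helicase, had 25.9, 34.5 and 28.0 CPM in the control libraries and 28.9, 19.8 and 32.2 CPM in the Sev libraries. Its log2 fold change of −0.13 became 0.055 without Sev replicate 2, the lowest library.

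**Figure D3:**
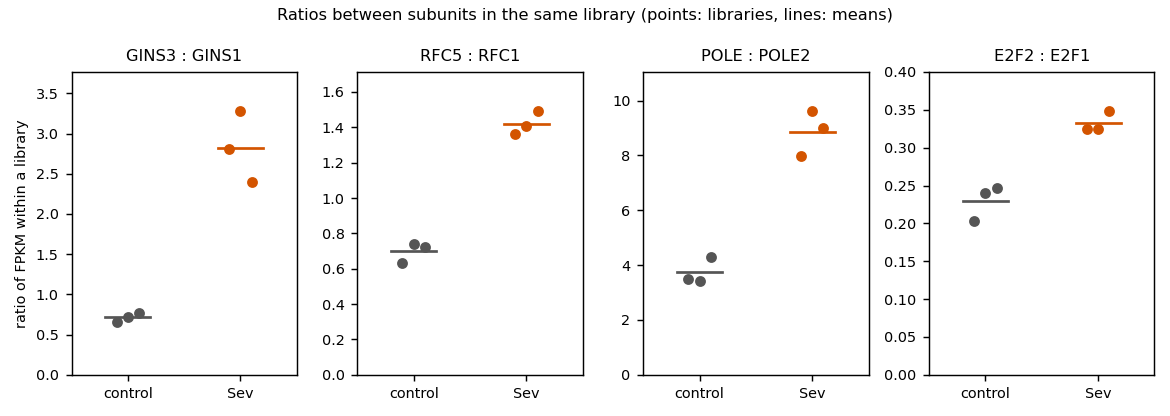
Ratio of the FPKM of 2 genes within each library (y axis, from 0) for control and Sev (x axis), one panel per pair, with points for libraries and lines for group means. For GINS3 to GINS1, RFC5 to RFC1, POLE to POLE2 and E2F2 to E2F1 the 3 Sev libraries all lie above the 3 control libraries.

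PCNA, the clamp that holds polymerases on DNA, had 73.8, 104 and 91.5 CPM in the control libraries and 145, 134 and 175 CPM in the Sev libraries, and rose with a log2 fold change of 0.75 ± 0.15 (SE, adjusted p = 0.00525) in edgeR's test. Its call was kept in all 15 alternatives. Of the 5 clamp loader genes 1 rose and 1 fell, where 22.1% and 21.5% of all features did. RFC1, the large subunit, fell from 82.1, 95.7 and 85.7 to 57.5, 62.5 and 59.4 CPM, a log2 fold change of −0.55 ± 0.088 (SE, adjusted p = 0.00203) by edgeR, with no overlap and a call in all 15 alternatives. RFC5 rose from 25.2, 34.3 and 29.9 to 37.9, 42.5 and 42.8 CPM, with a log2 fold change of 0.46 ± 0.13 (SE, adjusted p = 0.0206) by edgeR. This call did not outlast the removal of control replicate 1, control replicate 3, Sev replicate 2 or Sev replicate 3 (adjusted p up to 0.0646). The remaining loader subunits stayed within the overlap of the groups. RFC2 had a log2 fold change of 0.20, RFC3 of 0.018 and RFC4 of −0.21, with adjusted p of 0.163, 0.91 and 0.247 (edgeR). The FPKM ratio of RFC5 to RFC1 was 0.633, 0.742 and 0.721 in control and 1.36, 1.41 and 1.49 in Sev libraries.

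Of the 9 polymerase and primase genes, POLE rose, POLE2 fell and 7 did not pass (DESeq2 called 1 higher and 2 lower). The edgeR shares of 11.1% in each direction were under the 22.1% and 21.5% of all features. POLE, the catalytic subunit of the leading strand polymerase, had 149, 177 and 173 CPM in the control libraries and 252, 230.1 and 275 CPM in the Sev libraries and a log2 fold change of 0.60 ± 0.10 (SE, adjusted p = 0.00251). POLE2, its B subunit, had 7.57, 9.14 and 7.19 CPM in the control libraries and 5.58, 4.31 and 5.45 CPM in the Sev libraries and a log2 fold change of −0.64 ± 0.17 (SE, adjusted p = 0.0173) by edgeR. Both were free of overlap, and the FPKM ratio of POLE to POLE2 was 3.5, 3.43 and 4.28 in control against 7.98, 9.61 and 9.0 in Sev libraries. POLE2 had the fewest counts of the 48 genes, between 162 and 362, and lost its call without control replicate 2 (adjusted p = 0.0546).

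POLA2, the B subunit of polymerase alpha, had 27.2, 39.98 and 40.7 CPM in the control libraries and 11.5, 25.4 and 29.1 CPM in the Sev libraries. The edgeR test gave a log2 fold change of −0.71 ± 0.32 (SE, adjusted p = 0.109). Without Sev replicate 1, its lowest library, the log2 fold change was −0.40 (edgeR adjusted p = 0.162). DESeq2's Wald test called POLA2 lower (adjusted p = 0.0486). POLA1, the catalytic subunit, had 46.3, 59.8 and 53.9 CPM in the control libraries and 62.6, 55.8 and 64.2 CPM in the Sev libraries and a log2 fold change of 0.19. The primase genes PRIM1 and PRIM2 had log2 fold changes of −0.13 and −0.35 (edgeR adjusted p = 0.44 and 0.0963). PRIM2 passed as lower without Sev replicate 3 and with scaling by library size only (edgeR adjusted p = 0.0496 and 0.0422). For the polymerase delta genes POLD1, POLD2 and POLD3 the log2 fold changes were −0.013, 0.083 and −0.10, each within 1 standard error of 0, and each of these signs turned in at least 1 alternative.

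The RPA genes, whose products coat single-stranded DNA, had log2 fold changes close to each other. RPA1 had 159, 204 and 206 CPM in the control libraries and 174, 165 and 158 CPM in the Sev libraries, with a log2 fold change of −0.20, and RPA2 and RPA3 had −0.20 and −0.21. In edgeR's test 0 of the 3 passed (adjusted p = 0.192, 0.142 and 0.197), 0 of the 3 had an unadjusted p under 0.05, and DESeq2 called 0. With scaling by library size only RPA1 and RPA2 passed as lower, with log2 fold changes of −0.34 and −0.34 (edgeR adjusted p = 0.0278 and 0.03). RPA1 also passed as lower without control replicate 1, its lowest control, at −0.32 (edgeR adjusted p = 0.0234). LIG1, the ligase that seals lagging strand fragments, had 53.0, 66.8 and 64.0 CPM in the control libraries and 80.1, 74.3 and 78.7 CPM in the Sev libraries and rose with a log2 fold change of 0.34 ± 0.10 (SE, adjusted p = 0.0288) in edgeR's test. It lost this call when control replicate 1, control replicate 3, Sev replicate 1 or Sev replicate 3 was removed (adjusted p up to 0.0977). FEN1, the flap nuclease, had 51.6, 75.7 and 64.3 CPM in the control libraries and 66.3, 65.0 and 63.0 CPM in the Sev libraries and a log2 fold change of 0.020, which turned to −0.12 both with library size only and without control replicate 1.

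Of the genes for deoxynucleotide supply, TYMS, thymidylate synthase, had 152, 226 and 198 CPM in the control libraries and 242, 255 and 289 CPM in the Sev libraries and a log2 fold change of 0.45 ± 0.15 (SE, adjusted p = 0.0386) by edgeR. This call was near the limit, being kept on the removal of control replicate 2 and lost on that of each other library (adjusted p from 0.0204 to 0.113). RRM2, the small subunit of ribonucleotide reductase, had 132, 182 and 162 CPM in the control libraries and 239.7, 154 and 250.5 CPM in the Sev libraries. Sev replicate 2 lay among the controls while Sev replicates 1 and 3 were above all of them, and the log2 fold change of 0.44 ± 0.19 (SE, adjusted p = 0.103) did not pass. Without Sev replicate 2 it was 0.63 (edgeR adjusted p = 0.0114). RRM1, the large subunit, had 93.9, 125 and 114 CPM in the control libraries and 116, 104 and 123 CPM in the Sev libraries and a log2 fold change of 0.045, which turned to −0.072 without control replicate 1.

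Levels of different genes were compared per length, as the deposited FPKM (mean ± SD, n = 3). In control cells the highest of the 48 were TYMS at 67.4 ± 11.8, PCNA at 54.5 ± 8.24, MCM7 at 52.4 ± 5.78 and MCM3 at 48.8 ± 5.57, and these held the first 4 ranks in Sev libraries too. In control, PCNA and MCM7 lay within 1 SD of each other, as did MCM7 and MCM3, and TYMS was above PCNA by more than 1 SD. In Sev, TYMS and PCNA were at 83.6 ± 10.1 and 83.5 ± 14.7. E2F1 followed with 31.0 ± 2.97 in control and 42.6 ± 2.84 in Sev. The lowest was POLE2 at 2.27 ± 0.267 in control and 1.32 ± 0.225 in Sev. Within the MCM ring the FPKM ran from 14.7 ± 1.44 for MCM5 to 52.4 ± 5.78 for MCM7 in control, so its subunits, which assemble in equal numbers, did not have equal mRNA levels. E2F1 was the highest of the 4 E2F genes in the group. E2F2 was 7.17 ± 1.32 in control and 14.2 ± 1.5 in Sev, and the FPKM ratio of E2F2 to E2F1 was 0.203, 0.240 and 0.247 in control against 0.325, 0.325 and 0.348 in Sev libraries. In rank, E2F2 moved from 35 to 20, GINS3 from 46 to 36 and SLBP from 14 to 8, while RFC1 moved from 21 to 35 and GINS1 from 38 to 47. FPKM are not TMM-scaled, so a fall between groups reads larger and a rise smaller on this scale than in CPM.

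**Figure D4:**
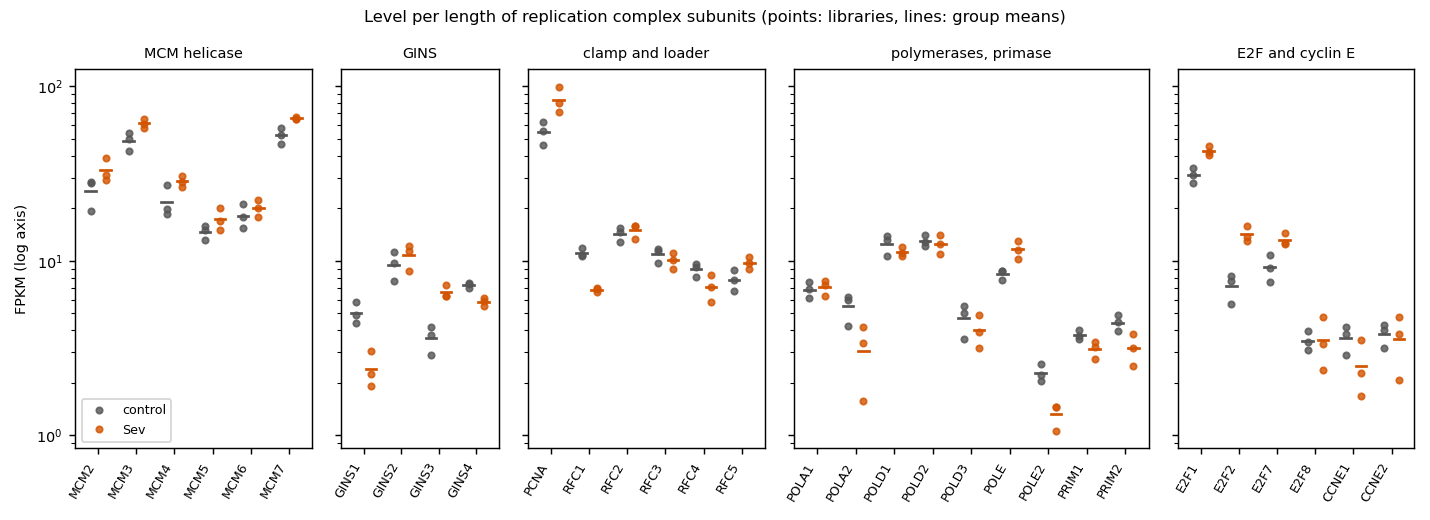
FPKM of the subunits of 5 complexes or families (y axis, log scale) with grey points for the 3 control and orange points for the 3 Sev libraries and lines for group means. GINS3 and GINS1 change places between control and Sev, the mean of RFC1 drops below those of the other loader subunits, and PCNA, MCM7 and MCM3 are the highest of the genes plotted in both groups.

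Of 42 further replication genes outside the group 7 rose and 12 fell (16.7% and 28.6%, where 22.1% and 21.5% of all features did), with a median log2 fold change of −0.059. The count that fell depended on single libraries. It was 6 without control replicate 2, where 10 rose, and 6 without control replicate 3 or Sev replicate 1, where 6 rose, while without control replicate 1 the counts were 6 and 12. In origin recognition and firing, 3 rose and 7 fell of 13, and 3 fell on removing any of 3 libraries (control replicates 2 and 3 and Sev replicate 1). The genes named next kept their calls on the removal of each library. ORC2 fell from 46.0, 45.3 and 47.5 to 25.1, 23.1 and 22.1 CPM. ORC3 fell from 38.7, 46.3 and 45.9 to 24.6, 23.6 and 26.4 CPM, opposite to ORC1 of the same complex. TICRR, needed for origin firing, had a log2 fold change of −0.93, and WDHD1, which links the helicase to polymerase alpha, had −1.17 (edgeR adjusted p = 0.000443 and 0.00026). ATR, the kinase of the replication checkpoint, had −0.78 (edgeR adjusted p = 0.00187). POLE3, a small subunit of polymerase epsilon, rose by 0.71, and CHAF1A, a subunit of the histone chaperone CAF-1, rose by 0.63.

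Of 27 genes that control entry into S phase, 23 were tested, 8 rose and 4 fell (34.8% and 17.4% of those tested, where 22.1% and 21.5% of all features did, and 7 and 4 genes without control replicate 1), with a median log2 fold change of 0.11. CCND1, cyclin D1, had 352, 446 and 390.4 CPM in the control libraries and 760.4, 825 and 757 CPM in the Sev libraries. CDC25A, a phosphatase that activates CDK2, had 25.8, 33.6 and 31.5 CPM in the control libraries and 57.2, 45.5 and 63.9 CPM in the Sev libraries. CDKN1B, the CDK inhibitor p27, fell from 50.5, 56.2 and 54.6 to 23.1, 24.2 and 19.3 CPM, a log2 fold change of −1.27 ± 0.11 (SE, adjusted p = 0.000189) by edgeR. The inhibitor CDKN1A had 79.9, 76.6 and 29.5 CPM in the control libraries and 72.8, 93.3 and 24.8 CPM in the Sev libraries, with replicate 3 the lowest in both groups. Of the pocket proteins that restrain E2F, RB1 and RBL2 fell, with log2 fold changes of −0.47 and −0.92, and RBL1 had −0.29 (edgeR adjusted p = 0.0127, 0.000428 and 0.0818). E2F3 and E2F6 rose by 0.59 and 1.04 on the log2 scale, and E2F5 had −1.02, past the limit. Of 26 G2/M genes, 1 rose and 8 fell (3.85% and 30.8%, against the same 22.1% and 21.5%, and 9 fell without control replicate 1), with a median of −0.13. The gene that rose was BIRC5, survivin, with 13.9, 15.3 and 18.8 CPM in the control libraries and 45.4, 19.6 and 49.5 CPM in the Sev libraries, and it lost its call without control replicate 1, without Sev replicate 1 and in the 3 analyses of FPKM. TOP2A, topoisomerase II alpha, had 596, 649 and 670.2 CPM in the control libraries and 272, 274 and 270.2 CPM in the Sev libraries. CDK1, the kinase that drives mitosis, had 79.6, 93.5 and 93.5 CPM in the control libraries and 51.6, 37.8 and 54.2 CPM in the Sev libraries. The difference between the lists was not tested.

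The genes lie on many chromosomes, and 27 of the 48 overlap another gene in GENCODE 29 on GRCh38, 13 on the same strand and 19 on the opposite strand. Whether the counting used the strand is not stated, so how reads were shared between overlapping genes is uncertain. Among the genes described, MCM7 (ENSG00000166508, chr7:100092728-100101940, GRCh38) holds MIR25, MIR93 and MIR106B and overlaps AP4M1, RFC5 (ENSG00000111445, chr12:118013588-118033130, GRCh38) overlaps WSB2 on the opposite strand, TYMS overlaps ENOSF1, and POLA2, FEN1 and PRIM1 share their strand with overlapping coding genes. Processed copies of PCNA, FEN1 and RRM2 held 0.137%, 0.317% and 0.154% of the counts summed over gene and copies. Genes with more CPM had higher log2 fold changes within the group (Spearman's rho 0.55 across the 48 genes, against 0.060 across 15189 protein-coding genes). Genes with a longer annotated span, introns included, had lower ones (rho −0.26 against −0.088). The CPM was the mean over all 6 libraries, so the Sev values entered both measures, and it was not scaled to length. Both correlations are descriptions across genes that share libraries, without a test. The genes that rose spanned 6.05 to 111 kb and the 3 that fell, GINS1 (ENSG00000101003, chr20:25407727-25452628, GRCh38), RFC1 (ENSG00000035928, chr4:39287456-39366375, GRCh38) and POLE2 (ENSG00000100479, chr14:49643555-49688422, GRCh38), spanned 44.9 to 78.9 kb. The 111 kb was the GENCODE span of GINS3 (chr16:58295080-58406144), and its RefSeq promoter lay inside that span (chr16:58392351-58392470, plus strand).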

How the data were processed

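The authors deposited raw counts per gene and FPKM values for 6 libraries made from RNA fragments of 200 nt on average with adapters that keep the strand. The submitters' processing notes name bcl2fastq 2.19, featureCounts and hg18. The aligner is not given in the sources used here, and the identifiers are of later annotations, so positions came from GENCODE 29 on GRCh38 by Ensembl identifier. In 11599 abundant features the FPKM followed the counts at a constant length within 0.0388 on the log2 scale.

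The test was edgeR 4.0.16 in R 4.3.3 (filterByExpr, TMM, glmQLFit, glmQLFTest, no covariate), which left 27514 features. SE is the absolute log2 fold change over the square root of F. The 15 alternatives changed the scaling (DESeq2's factors or none), the tool (DESeq2 1.42.0), the filter (none, or 10 counts in every library), the block, the libraries (each removed once) and the unit, with limma 3.58.1 on log2(FPKM + 1) or log2(FPKM + 0.1) at an FPKM of 0.5 in 3 libraries, and on the former unfiltered. Scripts were tested on simulated data. The genes and lists were chosen with earlier results of these data known. Any of the 48 could be named, every call among the markers was named, and from each other list up to 8 genes past the limit were. The named genes were among those with large changes but not always the largest. DSCC1 and CENPE, with log2 fold changes of −0.66 and −1.05 and past the limit, were left out. RB1, RBL1, CDKN1A and the ratio pairs were chosen after their values were seen. An exact test of 3 against 3 cannot go under p = 0.1.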

Additional observations from a re-analysis of the deposited data

How the results depend on the processing

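Of the 22 calls, 14 were kept on the removal of each of the 6 libraries and 11 in all 15 alternatives, which were those of MCM7, CDT1, GINS3, PCNA, POLE, E2F1, E2F2, E2F7 and SLBP as higher and of GINS1 and RFC1 as lower. Leaving out a library gave 12 to 22 genes higher and 2 to 5 lower (all features 16.7% to 20.0% and 15.6% to 19.3%). By the study's threshold it gave 0 to 3 higher and 0 to 1 lower. The 12 came without control replicate 1, and the 5 without Sev replicate 3, where 14 genes were higher. The median ran from 0.15 without control replicate 1 to 0.34 without Sev replicate 2. With library size only, 12 were higher and 7 lower (all features 17.0% and 27.3%), with 0 and 1 past the study's threshold. With limma on log2(FPKM + 1), 12 were higher and 8 lower (all features 16.4% and 30.0%), with 0 higher past the threshold. With log2(FPKM + 0.1) the counts were 12 and 8 (all features 16.2% and 29.2%), with 0 and 1 past the threshold. Without the filter on FPKM they were 9 and 5 (all features 9.64% and 14.5%), with 0 higher past it. Without the filter on low counts 14 genes were higher and 3 lower (all features 12.2% and 11.3%), with 1 higher past the threshold. DESeq2's factors and Wald test and the filter at 10 counts kept the counts within 1.5 times. The FPKM settings scale by library size, and the unfiltered ones test more features. The cause of the other differences was not tested. Genes that gained a call as lower were GINS4, PRIM2, RPA1 and RPA2 with library size only, and these 4 with RPA3 on both filtered FPKM scales, GINS4 and RPA2 also on the unfiltered one. The median of all features moved by −0.14 with library size only, −0.11 with log2(FPKM + 1) and −0.16 with log2(FPKM + 0.1). With library size only, by that construction fewer genes rose and more fell. The FPKM settings also changed the test and the filter, so their counts cannot be put down to the scaling alone. With the replicate number as a block 17 genes were higher and 4 lower (all features 19.0% and 18.2%). MCM5 and LIG1 lost their calls (adjusted p = 0.0502 and 0.0589) and POLA2 gained one, at −0.79. Over all tested features same-numbered libraries did not deviate together, with correlations of −0.007, 0.004 and 0.027, and the numbers were not taken as pairs. Such correlations cannot exclude pairing, since CDKN1A and FOXM1 were each lowest in replicate 3 of both groups.

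Signs turned only for genes without a call. In the order library size only, log2(FPKM + 1), log2(FPKM + 0.1) and the unfiltered FPKM, RFC3 was −0.12, −0.11, −0.12, −0.11, POLD2 −0.054, −0.058, −0.062, −0.058, FEN1 −0.12, −0.10, −0.11, −0.10, RRM1 −0.091, −0.089, −0.092, −0.089 and CCNE2 −0.10, −0.12, −0.17, −0.12. E2F8 was −0.028, −0.046, −0.028 on the 3 FPKM settings. CCNE2 was −0.020 with the block, and POLD1 was 0.0017 both with DESeq2's size factors and its Wald test. Over the removals of single libraries, MCM10 ran from −0.27 to 0.055, RFC3 ran from −0.085 to 0.075, POLD1 ran from −0.14 to 0.058, POLD3 ran from −0.28 to 0.040, FEN1 ran from −0.12 to 0.15, RRM1 ran from −0.072 to 0.13, E2F8 ran from −0.12 to 0.34 and CCNE2 ran from −0.21 to 0.29. Every gene had at least 162 counts in each library, and the 3 replicates per group limit the precision.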
